A study of Mus musculus with 48 samples.

Results

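Kidneys of D-alanine-treated mice were compared between 2 opposite circadian times, CT12 and CT0. D-alanine has the opposite handedness to L-alanine, the form that ribosomes build into proteins. The comparison rests on 8 of the 48 RNA-seq libraries of the series, 4 at CT0 and 4 at CT12, chosen by their treatment and time labels. Circadian time counts the hours of an animal's own day, and by convention CT0 opens the subjective day and CT12 the subjective night. Mice are night-active, so CT12 stands at the start of their active phase. All 48 libraries came from whole kidney of wild-type (WT) mice, with D-alanine or vehicle given to 24 libraries each at 6 times, CT0, CT4, CT8, CT12, CT16 and CT20. Neither the dose, route and lighting nor the age, sex and strain of the mice can be stated from the labels. The series describes kidneys from different mice in an experiment that was performed 2 times. The values stand in 2 tables with 2 libraries of each group, taken here as the 2 runs, which is an inference. Replicates 1 and 2 of each group are in the first table and replicates 3 and 4 in the second, and values are listed in the order 1 to 4 throughout.

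The molecular clock of mammalian cells is a transcriptional loop. The activators BMAL1 (encoded by Arntl), CLOCK and NPAS2 bind E-box sequences and switch on the Per and Cry genes, whose proteins then repress the activators. Side loops run through the nuclear receptors REV-ERB (Nr1d1, Nr1d2), which repress Arntl, and ROR, which activate it, and through the D-box factors DBP, TEF and HLF and their repressor NFIL3. In the kidney the clock is known for its daily control of solute transport and metabolism.

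Expression in whole-kidney RNA was measured as FPKM, fragments scaled to gene length and library total, and tested as log2(FPKM + 1) with the table as a block. A log2 change below is CT12 minus CT0 on that scale, which understates changes of low genes. A gene passed when its adjusted p from limma, corrected over the 14922 genes tested, was under 0.05, and only such genes are said to rise or fall. The ± beside a log2 change is its standard error (SE). Depth was 10459495 to 12454996 fragments in the 8 libraries. Mitochondrially encoded genes took 40.5%, 28.9%, 16.7% and 15.4% of the summed FPKM at CT0 and 39.7%, 46.0%, 18.6% and 14.9% at CT12. That share was high in the first table at both times, and its mean difference of 4.45 percentage points did not pass an exact permutation test within tables (two-sided p = 0.333, smallest possible 0.0556).

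The libraries also differed in the levels of markers of kidney regions. Inner medulla markers had a mean log2(FPKM + 1) of 5.08, 5.77, 3.72 and 3.27 at CT0 and 3.04, 4.52, 3.07 and 4.43 at CT12. They were highest in the 2 CT0 libraries of the first table, and in the second table CT12 replicate 4 was the highest. Aqp2, the vasopressin-regulated water channel of the collecting duct, stood at 767, 2870.1, 136 and 101 FPKM at CT0 and 224, 571, 243 and 588 FPKM at CT12. Its log2 change was -2.05 in the first table and 1.68 in the second, so the tables moved in opposite directions. In whole tissue, fewer cells of a type and less RNA per cell cannot be told apart. For several gene groups, values within each table stand beside those over both. Counts are also given with the inner medulla marker score as a covariate and with the CT0 libraries of the second table only, both of which were alternatives chosen after seeing the data.

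Between CT0 and CT12, 446 of 14922 genes rose (2.99%) and 1213 fell (8.13%), so 11.1% passed in either direction. The changes were mostly modest, with 61 of the genes that rose and 51 of those that fell past 2-fold on the log2(FPKM + 1) scale. The median log2 change was 0.61 over the genes that rose, -0.48 over those that fell and -0.13 over all genes tested. In 367 genes (2.46%) every CT12 library was above every CT0 library, and in 1108 (7.43%) every CT12 library was below every CT0 library, shares against which the named genes without overlap are to be read. The balance of directions depended on scaling, with 585 higher and 303 lower after quantile normalization, 667 and 227 after centring each library on its median, 406 and 761 after rescaling without mitochondrial genes and 355 and 2654 after rescaling to TPM. Rescaling to TPM moved the median of all genes to -0.25, whereas quantile normalization put it at -0.01 and median centring at 0.04. The counts of both directions dropped by more than 1.5 times when any of 3 libraries was left out, to 187 and 364 without CT0 replicate 2, 141 and 235 without CT12 replicate 1 and 230 and 395 without CT12 replicate 3. With the medulla score as a covariate 282 genes were higher and 712 lower, and with the CT0 libraries of the second table only 66 and 143. A fit on the 8 compared libraries alone, which takes the spread from them and not from all 24 D-alanine libraries, called 69 higher and 48 lower, with 3628 genes at an unadjusted p under 0.05 beside 4566.

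The genes of largest change were led by the clock. Among the 15 of largest rise were Dbp, Ciart, Per1, Per3, Per2, Tef and Nr1d2, and among the 15 of largest fall were Arntl, Npas2 and Nfil3. The other top genes that rose included Cyp24a1, the enzyme that inactivates vitamin D, Cpeb3, a regulator of mRNA translation, Cyp2a5, a coumarin-oxidising cytochrome P450, Tnfaip8, Armc12, Tgm1, a protein-crosslinking transglutaminase, Susd3 and Nat8f3. The other top genes that fell included Cyp4a14, a fatty acid hydroxylase, Ppard, a lipid-sensing nuclear receptor, Slc16a1, the lactate and pyruvate carrier MCT1, Cdkn1a, the cell cycle inhibitor p21, Slc5a3, the osmolyte myo-inositol transporter, Npnt, a basement membrane protein, Nt5e, which makes adenosine, Ddit4l, Dtx4, Egfl6, Hist2h3c2 and Tnfaip2. Cyp2a5, Cyp4a14, Nat8f3 and Hist2h3c2 have close copies with which fragments may be shared, so their values are uncertain.

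**Figure D1:**
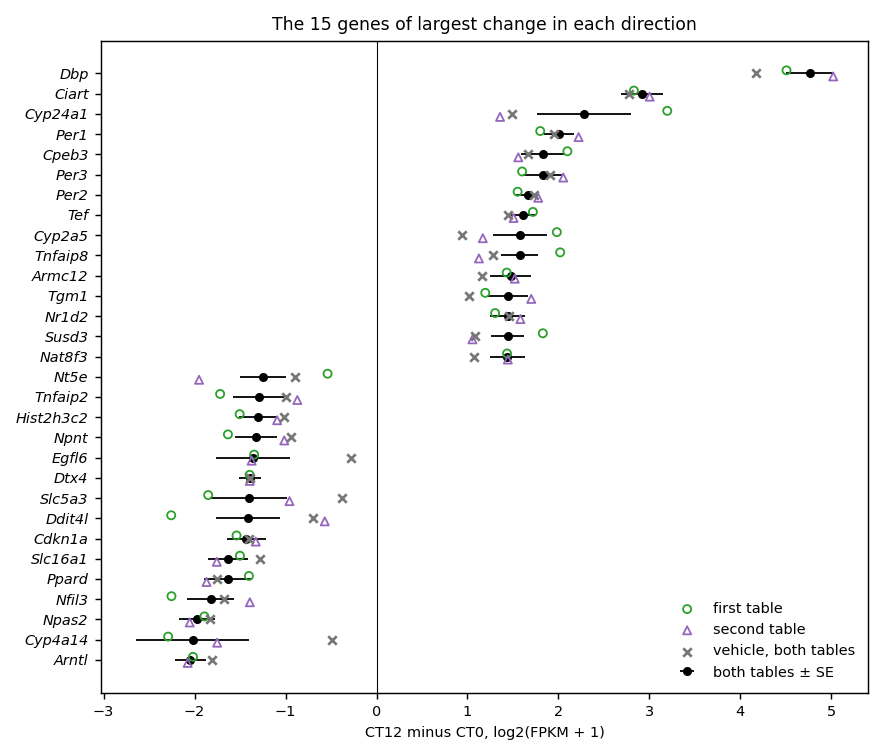
Log2 change between CT12 and CT0 (horizontal axis, log2(FPKM + 1)) of the 15 genes of largest rise and the 15 of largest fall. Black points with bars are the value over both tables ± SE, open circles the first table, open triangles the second table and crosses vehicle kidney. All 30 genes have the same sign in both tables, which the rule for naming them required, and Dbp stands far out at 4.76.

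In several of these genes every library of 1 time lay apart from every library of the other. Ppard stood at 12.7, 9.05, 14.1 and 22.2 FPKM at CT0 and 3.46, 3.41, 4.401 and 3.87 FPKM at CT12, a log2 change of -1.64 ± 0.26 (adjusted p = 0.000962). Slc16a1 stood at 5.89, 9.22, 11.4 and 13.1 FPKM at CT0 and 1.74, 2.203, 3.101 and 2.73 FPKM at CT12, a change of -1.63 ± 0.22 (adjusted p = 0.000228). Cdkn1a stood at 12.1, 5.49, 5.96 and 5.82 FPKM at CT0 and 1.67, 2.75, 1.497 and 2.01 FPKM at CT12, a change of -1.43 ± 0.21 (adjusted p = 0.000643). Its CT0 replicate 1 was well above the other CT0 libraries. In these 3 genes the lowest CT0 library was above the highest CT12 library. Cpeb3 stood at 4.397, 4.05, 5.599 and 4.47 FPKM at CT0 and 27.5, 16.6, 17.8 and 15.7 FPKM at CT12, a change of 1.83 ± 0.24 (adjusted p = 0.000148), with no overlap. Others were uneven. Cyp24a1 stood at 3.43, 1.15, 5.59 and 22.97 FPKM at CT0 and 23, 32.4, 37.5 and 25.97 FPKM at CT12. CT0 replicate 4 fell just short of the lowest CT12 library, and the log2 change of 2.28 ± 0.52 (adjusted p = 0.0114) lost the call without CT0 replicate 2 (adjusted p = 0.052). Cyp4a14 stood at 33.8, 8.49, 23.8 and 42.6 FPKM at CT0 and 2.56, 2.87, 10.3 and 7.43 FPKM at CT12, and its groups overlapped, since CT0 replicate 2 lay below CT12 replicate 3. Its change of -2.02 ± 0.62 (adjusted p = 0.0427) lost the call without CT12 replicate 1 (adjusted p = 0.145). Slc5a3, itself an inner medulla marker, stood at 13.7, 30.9, 21.1 and 9.3 FPKM at CT0 and 2.82, 8.39, 4.61 and 9.79 FPKM at CT12, with 1 low CT0 library under the highest CT12 library. Its change of -1.40 ± 0.42 (adjusted p = 0.0399) also lost the call without CT12 replicate 1 (adjusted p = 0.165).

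Of the 19 core clock genes, all measured, 9 rose and 4 fell, with a median log2 change of 0.71 (0.34 in the first table and 0.90 in the second). By comparison, 2.99% of all genes rose and 8.13% fell, with a median of -0.13. Promoters of clock genes are shown first because E-boxes, D-boxes and ROR elements are the sequences through which the loop is known to run. The sequences are RefSeq promoters of build GRCm38.p6, from 250 bases before to 50 after a start, and 16 of the 19 genes were in that table. Capitals mark E-boxes (CACGTG), D-boxes (TTATGTAA or TTATGCAA) and ROR elements (TAGGTCA or TGGGTCA), searched on both strands. The first 4 belong to genes that rose and the last 2 to genes that fell.
Ciart: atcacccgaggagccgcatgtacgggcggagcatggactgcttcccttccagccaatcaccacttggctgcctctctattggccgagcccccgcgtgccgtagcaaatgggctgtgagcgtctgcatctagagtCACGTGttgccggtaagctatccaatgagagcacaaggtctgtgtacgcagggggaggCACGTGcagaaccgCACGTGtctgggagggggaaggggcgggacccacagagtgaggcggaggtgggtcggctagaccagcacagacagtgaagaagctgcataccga
Per1: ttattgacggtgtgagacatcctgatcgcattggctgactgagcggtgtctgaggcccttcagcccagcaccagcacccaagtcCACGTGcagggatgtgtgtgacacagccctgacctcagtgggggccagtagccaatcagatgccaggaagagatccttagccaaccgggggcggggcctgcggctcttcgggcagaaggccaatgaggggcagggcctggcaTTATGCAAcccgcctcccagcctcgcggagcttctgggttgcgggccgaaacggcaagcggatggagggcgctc
Tef: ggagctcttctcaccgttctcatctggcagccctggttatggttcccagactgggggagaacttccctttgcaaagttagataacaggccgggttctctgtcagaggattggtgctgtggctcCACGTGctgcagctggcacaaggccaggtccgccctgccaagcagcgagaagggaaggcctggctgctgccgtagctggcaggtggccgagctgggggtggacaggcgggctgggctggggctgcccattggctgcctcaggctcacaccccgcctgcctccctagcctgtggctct
Per3: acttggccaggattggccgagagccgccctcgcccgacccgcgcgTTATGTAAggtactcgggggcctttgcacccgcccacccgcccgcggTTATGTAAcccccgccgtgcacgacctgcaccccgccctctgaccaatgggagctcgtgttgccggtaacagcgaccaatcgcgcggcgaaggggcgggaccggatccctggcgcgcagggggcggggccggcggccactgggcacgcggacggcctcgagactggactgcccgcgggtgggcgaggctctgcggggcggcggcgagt
Arntl: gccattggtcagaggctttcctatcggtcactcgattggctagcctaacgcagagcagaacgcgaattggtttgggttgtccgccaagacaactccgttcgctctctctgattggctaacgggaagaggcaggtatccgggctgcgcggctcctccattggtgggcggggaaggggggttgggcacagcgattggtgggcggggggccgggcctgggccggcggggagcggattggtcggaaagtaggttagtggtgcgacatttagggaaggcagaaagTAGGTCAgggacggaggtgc
Nfil3: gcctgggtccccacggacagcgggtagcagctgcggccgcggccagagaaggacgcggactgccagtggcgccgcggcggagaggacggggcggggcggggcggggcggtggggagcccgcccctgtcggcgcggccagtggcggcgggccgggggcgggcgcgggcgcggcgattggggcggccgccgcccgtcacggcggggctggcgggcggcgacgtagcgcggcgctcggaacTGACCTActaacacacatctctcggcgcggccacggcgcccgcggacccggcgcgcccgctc

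These windows are chr3:95882179-95882478 (- strand) for Ciart, chr11:69098699-69098998 (+ strand) for Per1, chr15:81802423-81802722 (+ strand) for Tef, chr4:151044616-151044915 (- strand) for Per3, chr7:113207261-113207560 (+ strand) for Arntl and chr13:52980990-52981289 (- strand) for Nfil3. Ciart holds 3 E-boxes, Per1 holds 1 E-box and 1 D-box, Tef holds 1 E-box and Per3 holds 2 D-boxes. Arntl and Nfil3 each hold 1 ROR element. Over all 32851 promoters of the table, 7.15% hold an E-box, 1.66% a D-box and 6.45% a ROR element. Among the 16 clock genes with a promoter, 5 held an E-box (Bhlhe41, Ciart, Cry1, Per1 and Tef), 2 a D-box and 2 a ROR element. A match is a description of the letters in the window and shows no binding.

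The activators of the loop and the repressor Nfil3 fell. Arntl (ENSMUSG00000055116, chr7:113207465-113314126, + strand) stood at 4.34, 4.49, 4.33 and 3.86 FPKM at CT0 and 0.138, 0.572, 0.155 and 0.262 FPKM at CT12. The CT12 libraries were all far below the CT0 libraries, with a log2 change of -2.05 ± 0.17 (adjusted p = 4.18e-07). Npas2, the partner that can replace CLOCK, stood at 3.35, 3.64, 3.62 and 4.28 FPKM at CT0 and 0.181, 0.239, 0.122 and 0.262 FPKM at CT12, again without overlap, and its change was -1.97 ± 0.19 (adjusted p = 4.14e-06). Clock stood at 3.13, 3.56, 3.67 and 3.07 FPKM at CT0 and 1.42, 1.78, 1.55 and 2.05 FPKM at CT12, a smaller change of -0.69 ± 0.11 (adjusted p = 0.000941) that also left no overlap. Nfil3, the repressor at D-boxes, stood at 5.67, 11.3, 8.43 and 8.98 FPKM at CT0 and 0.683, 1.13, 2.83 and 2.56 FPKM at CT12, and its change was -1.82 ± 0.26 (adjusted p = 0.000374). The change of Nfil3 was -2.25 in the first table and -1.39 in the second, and its groups did not overlap.

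The D-box activators rose. Dbp (ENSMUSG00000059824, chr7:45705088-45710203, + strand) stood at 3.13, 2.17, 1.43 and 1.13 FPKM at CT0 and 94.6, 69.9, 73.9 and 71.8 FPKM at CT12. All 4 CT12 libraries were far above all 4 CT0 libraries, with a log2 change of 4.76 ± 0.26 (adjusted p = 8.79e-10), the largest of any named gene. Tef stood at 17.2, 25.2, 21.7 and 19.6 FPKM at CT0 and 78.1, 64.3, 61.9 and 59.3 FPKM at CT12, and its change was 1.61 ± 0.14 (adjusted p = 6.44e-07), without overlap. Hlf stood at 6.32, 6.41, 11.6 and 11.4 FPKM at CT0 and 16.6, 11.3, 17.6 and 18.5 FPKM at CT12. Its groups overlapped because CT12 replicate 2 lay below both CT0 libraries of the second table, although within each table both CT12 libraries were higher. Its change of 0.81 ± 0.18 (adjusted p = 0.0117) lost the call without CT12 replicate 1 (adjusted p = 0.0615).

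The period genes and Ciart, repressors of the loop, rose. Per1 stood at 4.41, 4.79, 3.03 and 3.44 FPKM at CT0 and 21.4, 15.96, 19.4 and 18.1 FPKM at CT12, a change of 2.01 ± 0.17 (adjusted p = 4.18e-07). Per2 stood at 7.72, 8.38, 4.303 and 5.32 FPKM at CT0 and 27.8, 23.4, 19.4 and 18.3 FPKM at CT12, a change of 1.66 ± 0.13 (adjusted p = 2.17e-07). Per3 stood at 2.23, 3.13, 1.298 and 1.16 FPKM at CT0 and 11.9, 8.52, 8.67 and 7.84 FPKM at CT12, a change of 1.83 ± 0.21 (adjusted p = 4.46e-05). None of the 3 overlapped between the times. Ciart, which encodes the repressor CHRONO, stood at 1.12, 1.49, 0.453 and 0.592 FPKM at CT0 and 21.6, 10.8, 11.6 and 10.8 FPKM at CT12, with CT12 replicate 1 well above the other CT12 libraries and a change of 2.92 ± 0.23 (adjusted p = 2.84e-07). The cryptochromes did not pass. Cry1 stood at 4.05, 4.21, 2.79 and 2.43 FPKM at CT0 and 2.28, 2.004, 2.76 and 2.97 FPKM at CT12, with values of -0.71 in the first table and 0.10 in the second. Cry2 stood at 2.94, 6.14, 1.74 and 1.62 FPKM at CT0 and 4.92, 4.46, 4.74 and 6.76 FPKM at CT12, where CT0 replicate 2 was as high as the CT12 libraries, and its change was 0.71 ± 0.24 (adjusted p = 0.0632).

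Of the nuclear receptors, Nr1d2 stood at 8.08, 12.6, 6.93 and 5.55 FPKM at CT0 and 23.9, 29.2, 21.8 and 19.4 FPKM at CT12, without overlap and with a change of 1.44 ± 0.19 (adjusted p = 0.00022). Nr1d1 stood at 11.3, 18.1, 10.2 and 7.101 FPKM at CT0 and 15.2, 22.4, 15.8 and 17.8 FPKM at CT12. Its groups overlapped and its change was 0.62 ± 0.34 (adjusted p = 0.22), and its highest mean among the 6 D-alanine times was at CT8. Rora, at -0.25 (adjusted p = 0.319), Bhlhe40, at 0.21 (adjusted p = 0.46), and Bhlhe41, at 0.38 (adjusted p = 0.0622), did not pass. The clock counts were 9 and 4 with TPM rescaling, 11 and 4 with quantile normalization or median centring, 10 and 4 with the medulla score and 10 and 4 with the CT0 libraries of the second table only. Leaving out any 1 library gave 8 to 10 higher and 4 lower. A fit on the 8 libraries alone gave 8 and 4, the first table alone 5 and 3 and the second alone 9 and 2.

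**Figure D2:**
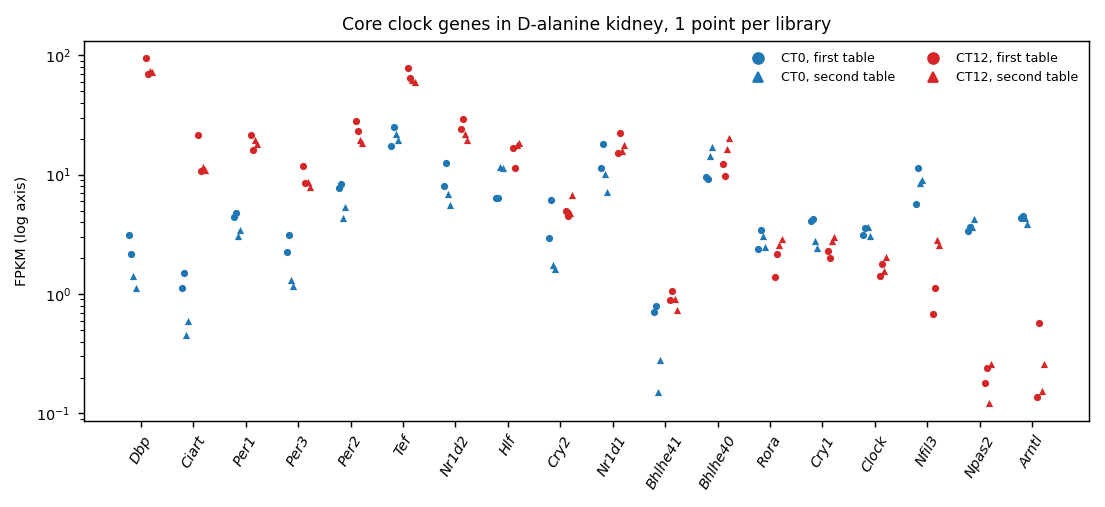
FPKM (vertical axis, log scale) of 18 core clock genes in the 4 CT0 (blue) and 4 CT12 (red) D-alanine libraries, 1 point per library, with circles for the first table and triangles for the second. Dbp, Ciart and the Per genes are separated upwards at CT12 and Arntl, Npas2, Nfil3 and Clock downwards, whereas Nr1d1, Cry1, Rora and Bhlhe40 overlap.

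Among 20 genes listed as clock-controlled outputs, 6 rose and 6 fell, and a fit on the 8 libraries alone called 2 and 4. For all 14922 genes the shares were 2.99% and 8.13%, and the 8-library fit called 69 higher and 48 lower. The output list, like every list here, was drawn up with earlier results of these data known, so its counts are no independent evidence. Usp2, a deubiquitinase, stood at 12.1, 9.999, 19.1 and 19.9 FPKM at CT0 and 44.7, 36.2, 41.5 and 39.96 FPKM at CT12, without overlap, and its log2 change was 1.40 ± 0.17 (adjusted p = 5.24e-05). Noct, a circadian NADP(H) phosphatase, changed by 1.01 ± 0.22 (adjusted p = 0.01) and Tspan4 by 0.80 ± 0.14 (adjusted p = 0.00219). Wee1, the kinase that holds back mitosis, stood at 2.22, 1.83, 2.35 and 2.61 FPKM at CT0 and 4.1, 3.61, 4.94 and 4.69 FPKM at CT12, a change of 0.71 ± 0.12 (adjusted p = 0.00225). Of the genes that fell, Dtx4, a Notch pathway ubiquitin ligase, had the smallest adjusted p. It stood at 4.99, 4.51, 5.05 and 4.63 FPKM at CT0 and 0.841, 1.59, 1.17 and 1.27 FPKM at CT12, with every CT0 library above every CT12 library and a change of -1.39 ± 0.12 (adjusted p = 7.23e-07). Ypel2 stood at 7.77, 6.94, 7.82 and 8.63 FPKM at CT0 and 2.34, 2.56, 2.97 and 3.55 FPKM at CT12, a change of -1.20 ± 0.13 (adjusted p = 1.57e-05). Avpr1a, a vasopressin receptor, changed by -0.97 ± 0.19 (adjusted p = 0.00569), Leo1 by -1.13 ± 0.20 (adjusted p = 0.00289) and Lonrf3 by -0.66 ± 0.14 (adjusted p = 0.00871).

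Protein-folding genes of the endoplasmic reticulum and of the cytosol were lower at CT12. The reticulum folds secreted and membrane proteins, and when unfolded proteins build up there its chaperone genes are known to be switched on through a shared promoter element. Of the 18 genes of the endoplasmic reticulum stress list, 13 fell and 1 rose, with a median log2 change of -0.56, beside a median of -0.13 and a share of 8.13% that fell over all genes. The median was -0.51 in the first table and -0.64 in the second. The genes that fell encode chaperones, co-chaperones and folding enzymes of the reticulum, besides Sel1l of its degradation machinery, whereas the stress-induced transcription factor genes Ddit3, at -0.04 (adjusted p = 0.905), and Xbp1, at -0.20 (adjusted p = 0.499), did not pass. The promoters of 5 genes that fell are shown because they hold the endoplasmic reticulum stress element, CCAAT, 9 further bases and CCACG, whose fixed letters are in capitals.
Hspa5: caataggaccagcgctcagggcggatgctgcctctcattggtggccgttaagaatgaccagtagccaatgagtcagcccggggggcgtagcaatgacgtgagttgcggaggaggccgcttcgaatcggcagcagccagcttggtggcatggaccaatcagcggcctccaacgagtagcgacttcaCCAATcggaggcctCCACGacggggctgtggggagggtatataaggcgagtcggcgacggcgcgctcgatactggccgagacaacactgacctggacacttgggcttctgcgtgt
Hsp90b1: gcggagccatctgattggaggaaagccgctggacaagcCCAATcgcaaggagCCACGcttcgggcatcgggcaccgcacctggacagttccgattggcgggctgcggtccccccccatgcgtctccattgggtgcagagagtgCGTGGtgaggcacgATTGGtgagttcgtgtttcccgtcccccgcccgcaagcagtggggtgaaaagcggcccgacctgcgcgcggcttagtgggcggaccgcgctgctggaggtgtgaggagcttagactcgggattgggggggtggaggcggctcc
Creld2: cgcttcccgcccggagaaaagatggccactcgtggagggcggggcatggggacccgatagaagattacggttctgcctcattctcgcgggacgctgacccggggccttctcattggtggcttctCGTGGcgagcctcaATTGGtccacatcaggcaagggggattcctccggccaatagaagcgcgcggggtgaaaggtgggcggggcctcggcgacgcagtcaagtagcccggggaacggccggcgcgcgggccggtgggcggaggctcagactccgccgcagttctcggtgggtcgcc
Pdia6: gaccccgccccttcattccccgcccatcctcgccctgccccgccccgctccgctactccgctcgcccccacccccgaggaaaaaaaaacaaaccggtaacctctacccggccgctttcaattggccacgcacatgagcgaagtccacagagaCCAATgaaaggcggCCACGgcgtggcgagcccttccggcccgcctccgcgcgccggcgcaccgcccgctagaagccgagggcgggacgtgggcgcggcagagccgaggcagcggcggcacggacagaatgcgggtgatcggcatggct
Canx: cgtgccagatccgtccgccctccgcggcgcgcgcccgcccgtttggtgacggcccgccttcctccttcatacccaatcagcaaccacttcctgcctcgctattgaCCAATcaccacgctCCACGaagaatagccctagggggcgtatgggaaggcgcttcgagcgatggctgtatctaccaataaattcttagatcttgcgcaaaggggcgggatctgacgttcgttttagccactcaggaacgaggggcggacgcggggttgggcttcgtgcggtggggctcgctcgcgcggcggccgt

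The windows are chr2:34771840-34772139 (+ strand) for Hspa5, chr10:86705395-86705694 (- strand) for Hsp90b1, chr15:88819396-88819695 (+ strand) for Creld2, chr12:17266339-17266638 (+ strand) for Pdia6 and chr11:50325624-50325923 (- strand) for Canx. Hsp90b1 holds 2 such elements, and the other 4 genes hold 1 each. On either strand the element was in 7 of the 16 genes of the list with a promoter, the others being Calr and Dnajc3, and in 39 of all 32851 promoters (0.119%). The list was chosen by function with earlier results of these data known, so its counts are no independent evidence. Promoters of such genes are where the element was first described, so the share of promoters holding it is no result of the comparison of times.

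Hspa5 (ENSMUSG00000026864, chr2:34771970-34777547, + strand) encodes BiP, the main chaperone of the reticulum. It stood at 92.5, 119, 115 and 185 FPKM at CT0 and 56.05, 56.9, 74.2 and 85.4 FPKM at CT12. Every CT0 library was above every CT12 library, with a log2 change of -0.87 ± 0.15 (adjusted p = 0.00219). Hsp90b1, the reticulum's HSP90, stood at 75.5, 95.5, 106 and 131 FPKM at CT0 and 47.1, 58.4, 56.4 and 66.7 FPKM at CT12, also without overlap and with a change of -0.81 ± 0.13 (adjusted p = 0.00096). Pdia6, a disulfide isomerase, stood at 37.7, 48.3, 51.96 and 62.9 FPKM at CT0 and 22.8, 26.1, 30.5 and 36.6 FPKM at CT12, a change of -0.77 ± 0.10 (adjusted p = 0.00023). Creld2, another disulfide isomerase, stood at 27.3, 39.6, 30.2 and 55.6 FPKM at CT0 and 16.4, 15.8, 19.7 and 24.7 FPKM at CT12, a change of -0.93 ± 0.17 (adjusted p = 0.00326). In all 4 genes every CT12 library was below every CT0 library, as in 7.43% of all genes. Canx (-0.64 ± 0.14, adjusted p = 0.00884) and Calr (-0.56 ± 0.11, adjusted p = 0.00569), the lectin chaperones calnexin and calreticulin, Hyou1 (-0.87 ± 0.23, adjusted p = 0.0227) and Sdf2l1 (-1.19 ± 0.26, adjusted p = 0.0098) also fell, and these 4 were singled out after their values were seen. The 1 gene that rose was Herpud1, which takes part in the degradation of misfolded proteins and was likewise picked afterwards, at 43.1, 43.7, 77.2 and 105 FPKM at CT0 and 94.3, 82.7, 118 and 113 FPKM at CT12 and a change of 0.68 ± 0.13 (adjusted p = 0.00534). It also stands in the clock output list. The count of genes that fell was 9 with quantile normalization, 6 with median centring, 11 with the medulla score and 7 with the CT0 libraries of the second table only, and 8 to 13 without any 1 library. When 1 library was left out, the lowest count, 8, came without CT12 replicate 1 or without CT12 replicate 3. Without the table term it was 5, and a fit on the 8 compared libraries alone called 1 lower, with 15 of the 18 at an unadjusted p under 0.05. The count of 13 came from the fit that takes its spread from all 24 D-alanine libraries and did not hold with the 8 alone. What lay behind that drop was not tested. Within either table alone, where only 2 libraries a group remained, none of the list was called lower, and at an unadjusted p under 0.05 there were 13 in the first table and 13 in the second, in either direction.

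Of 17 heat shock and chaperone genes, 7 fell and none rose, with a median log2 change of -0.61 (-0.62 in the first table and -0.59 in the second). Beside them, 8.13% of all genes fell and 2.99% rose, with a median of -0.13. The heat shock list, too, was chosen with earlier results of these data known. Hsp90aa1, the inducible cytosolic HSP90, stood at 101, 132, 126 and 154 FPKM at CT0 and 39.8, 73.4, 46.1 and 67.9 FPKM at CT12. The groups did not overlap, and the change was -1.19 ± 0.20 (adjusted p = 0.00145). Its co-chaperone gene Stip1 stood at 50.6, 53.2, 49.8 and 66.04 FPKM at CT0 and 26.7, 31.02, 34.9 and 40.2 FPKM at CT12, a change of -0.71 ± 0.12 (adjusted p = 0.00132). Bag3, which couples HSP70 to autophagy, stood at 21.8, 27.6, 20.9 and 20.7 FPKM at CT0 and 10.6, 14.5, 12.1 and 13.7 FPKM at CT12, a change of -0.79 ± 0.13 (adjusted p = 0.00132). Dnajb1, an HSP40, stood at 13.8, 16.2, 18.9 and 25.9 FPKM at CT0 and 8.37, 10.5, 10.9 and 12.8 FPKM at CT12, a change of -0.74 ± 0.13 (adjusted p = 0.00296). In each of the 4 every CT12 library was below every CT0 library, as in 7.43% of all genes. Hsp90ab1, Chordc1 and Ahsa1, of the same HSP90 machinery, changed by -0.56 (adjusted p = 0.0102), -0.50 (adjusted p = 0.0148) and -0.39 (adjusted p = 0.0357). The stress-inducible HSP70 genes did not pass, with Hspa1b at -1.62 ± 1.11 (adjusted p = 0.327) and Hspa1a at -1.21 ± 0.63 (adjusted p = 0.199), and the change of Hspa1b was -2.65 in the first table and -0.59 in the second. Reads of these near-identical copies may be shared, so both values are uncertain. The constitutive Hspa8 was at 0.09 ± 0.19 (adjusted p = 0.763). The count of 7 was 5 with quantile normalization, 4 with median centring, 7 with the medulla score and 7 with the CT0 libraries of the second table only. It was 5 to 8 when 1 library was left out. It was 0 in a fit on the 8 libraries alone and in either table alone, where 9, 9 and 8 of the 17 had an unadjusted p under 0.05.

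Of 3 cold-inducible genes 2 rose, beside 2.99% of all genes. Transcripts of such genes are known to rise as body temperature falls. Cirbp stood at 22.9, 10.1, 15.7 and 12.3 FPKM at CT0 and 28.3, 20.6, 34.1 and 28.9 FPKM at CT12, a log2 change of 0.88 ± 0.25 (adjusted p = 0.0342). Only CT0 replicate 1 was above the lowest CT12 library. Rbm3 stood at 7.32, 9.02, 13.7 and 9.42 FPKM at CT0 and 14.1, 11.01, 14.9 and 16.8 FPKM at CT12, with smaller gaps, overlap between the groups and a change of 0.50 ± 0.14 (adjusted p = 0.0325). Srsf5, at 0.47 ± 0.17 (adjusted p = 0.0806), did not pass. Neither call held with the medulla score as a covariate, with adjusted p = 0.0605 for Cirbp and 0.0654 for Rbm3. Without CT0 replicate 2, without CT0 replicate 4, or without any of CT12 replicates 1, 3 and 4, neither of them passed.

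**Figure D3:**
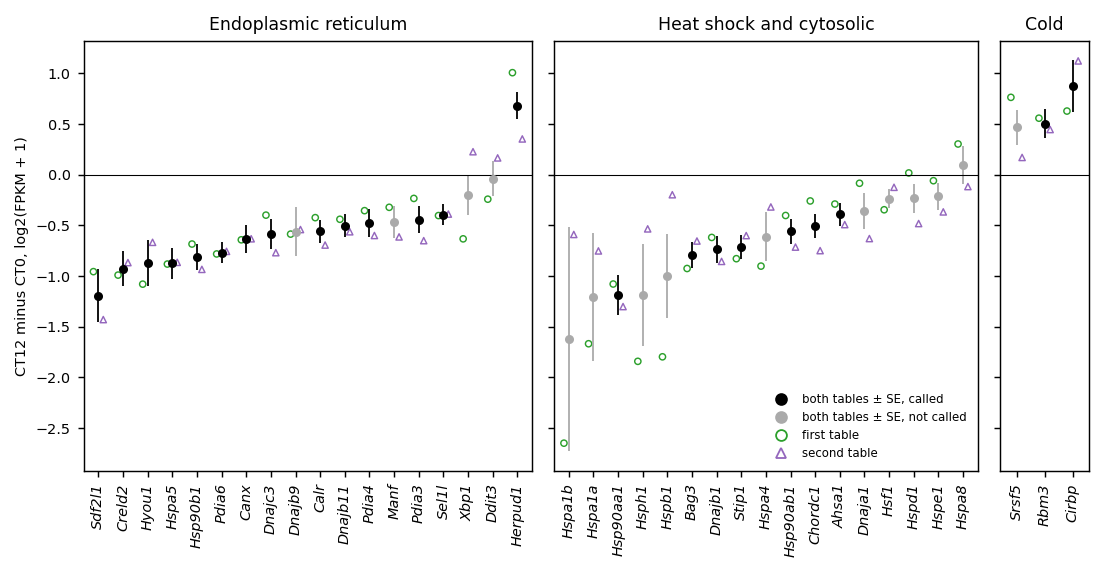
Log2 change between CT12 and CT0 (vertical axis, log2(FPKM + 1)) of the endoplasmic reticulum stress, heat shock and cold-inducible genes. Filled points with bars are the value over both tables ± SE, black where the gene passed and grey where it did not, with open circles for the first table and open triangles for the second. Most chaperones lie below 0 in both tables, and Herpud1, Rbm3 and Cirbp lie above.

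Of 20 ribosome biogenesis genes 6 fell and none rose (median log2 change -0.20). Nolc1, a nucleolar assembly factor, stood at 12.8, 17.01, 15.1 and 14.4 FPKM at CT0 and 9.14, 9.31, 11.4 and 11.9 FPKM at CT12, a change of -0.47 ± 0.09 (adjusted p = 0.00317) without overlap. Dkc1 (-0.53 ± 0.13, adjusted p = 0.0164), Ddx21 (-0.55 ± 0.15, adjusted p = 0.0253), Tcof1 (-0.49 ± 0.13, adjusted p = 0.0205), Nop58 (-0.42 ± 0.10, adjusted p = 0.0178) and Nop2 (-0.40 ± 0.12, adjusted p = 0.0349) were the others. The count was 2 with quantile normalization or median centring, 10 with TPM rescaling and 1 with the CT0 libraries of the second table only. It was 1 without CT0 replicate 2 or without CT12 replicate 1, 3 without CT12 replicate 3 and 0 in a fit on the 8 libraries alone. None of 15 cytosolic ribosomal protein genes passed, and 2 of 16 proteasome genes fell, Psmd11 (-0.56 ± 0.09, adjusted p = 0.000962) and Psmc6 (-0.37 ± 0.11, adjusted p = 0.036). In cholesterol synthesis and uptake 2 of 15 fell. For the proteasome and cholesterol lists the share lay near the 8.13% of all genes that fell. Srebf2, the master regulator of the pathway, stood at 13.8, 14.03, 18.1 and 18.2 FPKM at CT0 and 10.3, 9.01, 11.97 and 12.2 FPKM at CT12, lower at CT12 within both tables, and its change was -0.52 ± 0.08 (adjusted p = 0.000678). Idi1 changed by -1.03 ± 0.30 (adjusted p = 0.034), with -0.16 in the first table and -1.90 in the second.

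Genes of glucose metabolism changed in small numbers, and few of these calls held across settings. Counts in these lists are to be read beside the 2.99% of all genes that rose and the 8.13% that fell. Of 20 gluconeogenesis genes 3 rose and 1 fell. Pck1, the gatekeeper enzyme of glucose synthesis, stood at 213, 219, 572 and 866 FPKM at CT0 and 751, 462, 1122 and 1370.2 FPKM at CT12. Both CT12 libraries were higher within each table, but across the tables the groups overlapped. The change of 1.13 ± 0.27 (adjusted p = 0.0155) lost the call without CT12 replicate 1 (adjusted p = 0.0705). Gpt, which interconverts alanine and pyruvate, stood at 11.6, 12.5, 14.1 and 11.3 FPKM at CT0 and 18.1, 13.1, 21.5 and 29.1 FPKM at CT12, and its groups overlapped. Its change of 0.63 ± 0.16 (adjusted p = 0.0211) lost the call without the same library (adjusted p = 0.0634). Slc37a4, the glucose 6-phosphate carrier, changed by 0.57 ± 0.17 (adjusted p = 0.0354), with 0.89 in the first table and 0.26 in the second. Pgam1, shared with glycolysis, changed by -0.65 ± 0.20 (adjusted p = 0.0383). In glycolysis 4 of 15 genes fell, Pfkp (-0.65 ± 0.18, adjusted p = 0.0302), Pkm (-0.81 ± 0.26, adjusted p = 0.0499), Pgam1 and Ldha (-0.31 ± 0.09, adjusted p = 0.0408). With quantile normalization 1 passed and with median centring none. Of 9 glucose and fructose transporters, Slc2a5 (0.66 ± 0.16, adjusted p = 0.016) and Slc2a9 (0.72 ± 0.19, adjusted p = 0.0253) rose and Slc2a1 (-0.72 ± 0.23, adjusted p = 0.0443) fell. With the CT0 libraries of the second table only, or in a fit on the 8 libraries alone, no gene of these 3 lists passed. The proximal tubule is the segment that makes glucose, and its 13 markers had a mean log2(FPKM + 1) of 7.53, 7.49, 8.26 and 8.42 at CT0 and 8.35, 7.96, 8.40 and 8.31 at CT12. They were lowest in the CT0 libraries of the first table, and none was at 0 in all 8 libraries. Their median log2 change was 0.65 in the first table and -0.02 in the second, and their part in the result was not tested.

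Of 10 measured genes that handle D-amino acids and alanine, 2 rose, Gpt and Pipox, a share to be read beside the 2.99% of all genes that rose. Pipox, a peroxisomal oxidase of pipecolate and sarcosine, stood at 72.6, 66.9, 148 and 139 FPKM at CT0 and 156, 116, 183 and 179 FPKM at CT12, with both CT12 libraries higher within each table and overlap across them. Its change of 0.64 ± 0.16 (adjusted p = 0.0205) lost the call without CT12 replicate 1 (adjusted p = 0.0904). Gpt2 was at 0.55 ± 0.20 (adjusted p = 0.0804) and Aars, the alanyl-tRNA synthetase, at -0.29 ± 0.10 (adjusted p = 0.0504). Among 19 amino acid transporters 1 rose. Slc7a9, the cystine and basic amino acid exchanger of the proximal tubule, stood at 22.4, 25.8, 26.6 and 27.3 FPKM at CT0 and 71.5, 42.7, 53.1 and 34.8 FPKM at CT12, with no overlap and a change of 0.91 ± 0.18 (adjusted p = 0.00491). With the CT0 libraries of the second table only, or in a fit on the 8 libraries alone, no gene of either list passed. Without CT12 replicate 1 or without CT12 replicate 3, no gene of the D-amino acid and alanine list passed, and 1 transporter still did.

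Cytochrome P450 and xenobiotic genes rose in 6 of 23 and fell in 2. Over all genes 2.99% rose and 8.13% fell, and the share of the list that fell lay near the latter. Besides Cyp24a1 and Cyp4a14 above, Cyp2a5 stood at 20.9, 25.99, 50.9 and 41.7 FPKM at CT0 and 155, 57.9, 117 and 94.2 FPKM at CT12, without overlap and with a change of 1.58 ± 0.30 (adjusted p = 0.00397). Gstt2, a glutathione transferase, stood at 90.6, 98.9, 135 and 131 FPKM at CT0 and 243, 151, 269.8 and 221 FPKM at CT12, every CT12 library above every CT0 library, a change of 0.94 ± 0.14 (adjusted p = 0.000469). Por, the electron donor of all microsomal P450s, changed by 0.66 ± 0.11 (adjusted p = 0.0018), and Alas1, the first enzyme of haem synthesis, by 1.12 ± 0.25 (adjusted p = 0.0117). Ces1f, a carboxylesterase, was at 0.53 ± 0.17 (adjusted p = 0.0489), and Cyp1b1 changed by -0.64 ± 0.14 (adjusted p = 0.0109). With the CT0 libraries of the second table only, 1 rose and 1 fell, and a fit on the 8 libraries alone called none. The median of the list was 0.59 in the first table and -0.02 in the second.

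The list counts that follow are to be read beside the 2.99% of all genes that rose and the 8.13% that fell. In mineral handling, Cyp24a1 rose and 2 of 18 genes fell, Atp2b1, a plasma membrane calcium pump (-0.50 ± 0.12, adjusted p = 0.0129), and Slc20a2, a phosphate carrier (-0.32 ± 0.09, adjusted p = 0.0238). In the acid-base list of 15 genes 1 rose, Pck1, and 1 fell. Of 17 insulin and growth factor genes, Igfbp4 rose (1.14 ± 0.25, adjusted p = 0.00942) and Pik3r1 (-0.47 ± 0.14, adjusted p = 0.0367) and Akt2 (-0.23 ± 0.07, adjusted p = 0.0369) fell. In the cell cycle list of 14 measured genes Wee1 and Plk3 rose, Plk3 by 1.15 ± 0.21 (adjusted p = 0.00306), and Cdkn1a fell. Errfi1 (0.93 ± 0.23, adjusted p = 0.0178) and Per1 rose in the glucocorticoid response list of 14 genes, where Cdkn1a and Nr3c1, the receptor gene itself (-0.52 ± 0.16, adjusted p = 0.0395), fell. Single genes fell in 4 further lists, Hmox1 of the NRF2 list (-0.75 ± 0.23, adjusted p = 0.0434), Rsad2 of the interferon list (-0.78 ± 0.22, adjusted p = 0.0325), Spp1 of the tubular injury list (-0.69 ± 0.19, adjusted p = 0.0312) and Cyp4a14 of fatty acid oxidation. No member passed by limma at the adjusted threshold among 22 sodium, water and WNK transport genes, 19 organic ion transporters, 13 amino acid stress genes, 14 immediate early genes, 19 nuclear oxidative phosphorylation genes, 13 mitochondrially encoded mRNAs or the 15 ribosomal protein genes. At an unadjusted p under 0.05 these lists held 4, 4, 3, 3, 2, 5 and 1 genes in that order, and limma voom on recovered fragments also called none. Other settings called up to 2 genes of a list, as rescaling to TPM did for 2 sodium and water genes, both lower.

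Cell type markers were examined for the same contrast, with counts to be read beside the 2.99% of all genes that rose and the 8.13% that fell. Of 7 thick ascending limb markers 2 fell, and all 7 were below 0, with a median of -0.49 in the first table and -0.96 in the second. Cldn10, a paracellular channel of that segment, stood at 52.1, 60.6, 88.6 and 80.4 FPKM at CT0 and 25.3, 42.03, 44.9 and 49.3 FPKM at CT12, lower at CT12 within both tables, with a change of -0.80 ± 0.12 (adjusted p = 0.000941). Kcnj1, the potassium channel ROMK, stood at 28.4, 25.8, 67.2 and 55.3 FPKM at CT0 and 16.7, 21.5, 28.03 and 36.7 FPKM at CT12, with overlap and a change of -0.70 ± 0.18 (adjusted p = 0.0228) that lost the call without 1 library (highest adjusted p = 0.0893, without CT12 replicate 1). Umod, the most abundant product of the segment and singled out here after its values were seen, stood at 196, 199, 1300.4 and 791 FPKM at CT0 and 153, 271, 382 and 448 FPKM at CT12 and did not pass, with 0.05 in the first table and -1.29 in the second. Also lower were Kdr (-0.46 ± 0.12, adjusted p = 0.0217) and Tek (-0.63 ± 0.20, adjusted p = 0.0429), 2 of 10 endothelium markers. Col3a1 (-0.89 ± 0.19, adjusted p = 0.00822) and Col1a2 (-0.68 ± 0.21, adjusted p = 0.046) fell, 2 of 9 fibroblast markers. So did Pdgfrb (-0.67 ± 0.19, adjusted p = 0.0299) and Mylk (-0.42 ± 0.12, adjusted p = 0.0366), 2 of 9 markers of vessel wall cells. In addition 1 of 7 podocyte markers fell, and Slc5a3, 1 of 14 inner medulla markers. Of the 13 proximal tubule markers Slc27a2, a fatty acid transporter, rose (0.61 ± 0.17, adjusted p = 0.0295), with 1.07 in the first table and 0.16 in the second.

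The principal cell and thin limb lists, without a call, differed in direction between the tables. The principal cell median was -1.24 in the first table and 0.72 in the second, and the thin limb median -2.91 and 0.75. The inner medulla list, with 1 marker that fell, also differed, with a median of -1.82 in the first table and 0.36 in the second. The endothelium and fibroblast medians, each with 2 markers that fell, kept their sign, at -0.99 and -0.16 for endothelium and -0.75 and -0.34 for fibroblasts. No marker of any kidney segment was at 0 in all 8 libraries, and no adrenal cortex marker passed the filter on low values. The part of tissue composition in the 1213 genes that fell was not tested beyond the covariate and library alternatives given above.

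**Figure D4:**
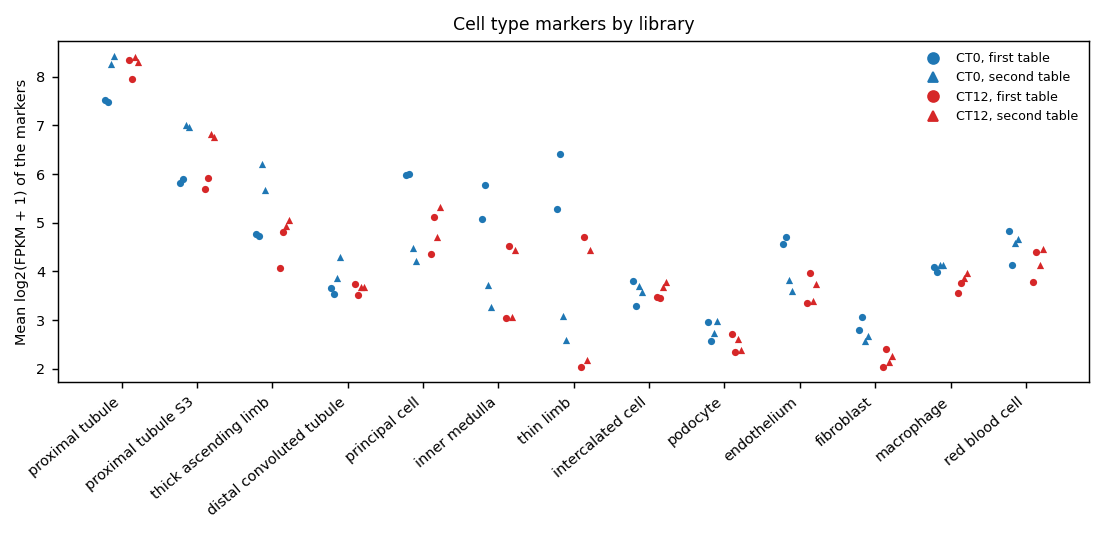
Mean log2(FPKM + 1) (vertical axis) of 13 cell type marker lists in the 4 CT0 (blue) and 4 CT12 (red) D-alanine libraries, with circles for the first table and triangles for the second. Inner medulla and thin limb markers are highest in the CT0 libraries of the first table, thick ascending limb markers in the CT0 libraries of the second table.

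The change between CT0 and CT12 was compared with that of vehicle kidneys, which share no library with the D-alanine groups. In vehicle, 197 genes rose and 178 fell (2.51% in either direction), and 262 genes passed in both treatments. The vehicle values came from a fit on all 48 libraries, so their spread was shared with the D-alanine libraries. A fit on the same 48 libraries called 639 genes higher and 2113 lower with D-alanine, beside 446 and 1213 from the 24 D-alanine libraries. Of the 446 genes that rose with D-alanine, 439 (98.4%) had the same sign in vehicle and 145 also passed there. Of the 1213 that fell, 1148 (94.6%) had the same sign and 117 passed. Over all genes 73.4% had the same sign. The difference between the treatments was tested directly. None of 14922 genes passed (0%), with 820 at an unadjusted p under 0.05 and a smallest adjusted p of 0.801 from limma, and voom on recovered fragments also called none, with 796 at an unadjusted p under 0.05. The larger number of genes past the threshold with D-alanine is therefore not shown to be a different response.

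In the fit on all 48 libraries 11 of the 19 core clock genes rose and 4 fell with D-alanine, beside 9 and 4 in the fit on its 24 libraries. In vehicle the 48-library fit also gave 11 and 4, and no member passed the test of the difference. Dbp was at 4.17 there and 4.76 with D-alanine, Per2 at 1.73 and 1.66, Arntl at -1.81 and -2.05, and Dtx4 at -1.39 and -1.39. In the reticulum list 4 genes fell in vehicle, with a median of -0.34, beside -0.56 with D-alanine. Hspa5 was at -0.64 in vehicle and Hsp90aa1 at -0.92. The interaction was -0.23 ± 0.25 (SE) for Hspa5 and -0.27 ± 0.31 (SE) for Hsp90aa1, with unadjusted p = 0.36 and 0.393 from limma.

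The 5 genes with the smallest interaction p, none past the threshold, were Ppp1r10, Ccnk, Hsd17b1, Rab6b and Msl3. Ppp1r10, a regulatory subunit of protein phosphatase PP1, stood at 11.01, 23.6, 12.5 and 12.3 FPKM at CT0 and 5.402, 6.85, 6.69 and 9.28 FPKM at CT12. CT0 replicate 2 was well above the other CT0 libraries, and the change was -0.94 with D-alanine against 0.09 in vehicle. Ccnk was at -0.27 against 0.22, Hsd17b1 at -0.30 against 0.51, Rab6b at -0.44 against 0.30 and Msl3 at -0.46 against -0.02.

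Over the 6 D-alanine times, CT12 and CT0 were not always the extremes. The mean of Dbp was 88.2 ± 11.9 FPKM at CT8 and 77.6 ± 11.5 at CT12 (SD, n = 4), a gap within the spread. Per2 was highest at CT16, with 26.6 ± 6.78 FPKM, beside 22.2 ± 4.32 at CT12. Arntl and Npas2 were highest at CT0 and lowest at CT12. Hspa5 was lowest at CT8, with 60.1 ± 4.65 FPKM, and stood at 131 ± 20.4 at CT16, near its CT0 level of 128 ± 39.9. Hsp90aa1 was lowest at CT12, with 56.8 ± 16.3 FPKM, and stood at 106 ± 14.5 at CT16. Cyp2a5 was highest at CT12 in both treatments, with 106 ± 40.8 FPKM with D-alanine and 59.01 ± 13.1 in vehicle.

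**Figure D5:**
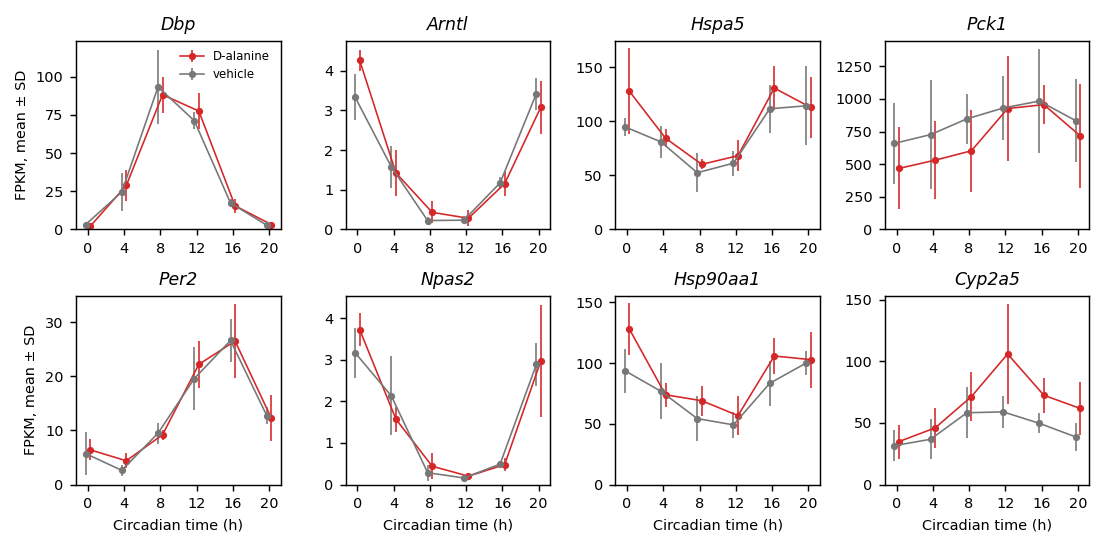
Mean FPKM ± SD (vertical axis, n = 4 per point) at the 6 circadian times (horizontal axis, hours) for 8 genes, with D-alanine in red and vehicle in grey. Dbp and Per2 are high and Arntl and Npas2 low at CT12, and the chaperone genes Hspa5 and Hsp90aa1 dip between CT8 and CT12 in both treatments.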

How the data were processed

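RNA-seq of mouse kidney was used as 2 tables of FPKM values for 49585 genes, which the authors deposited with 24 libraries each. Libraries were made from kidney RNA with an mRNA-seq kit, per the labels' protocols, and the submitters' processing notes name build GRCm38 (mm10). For the aligner, counting tool and filters, names and settings were not given in these sources. Genes with at least 1 FPKM in at least 4 of 48 libraries were kept. Values were taken as log2(FPKM + 1) and fitted with limma 3.58.1 in R 4.3.3, with trend moderation, over the 24 D-alanine libraries with 6 time groups and a table term. The change in vehicle was fitted over all 48 libraries, and the difference from vehicle was an interaction over the same libraries. P-values were two-sided and Benjamini-Hochberg adjusted over all genes tested. FPKM steps with exon lengths gave back fragment counts, 97% to 97.6% of them whole within 0.05 for single-transcript genes under 20 fragments (92% to 93.4% over all genes), which limma voom used as an alternative. The scripts were tested on simulated data.

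The members and lists were chosen with earlier results of these data known. Named were the 15 genes of largest change in each direction that passed with the same sign in each table, all core clock genes, up to 4 genes of smallest p in each other list, up to 3 passing markers a list and, for the interaction, the 5 genes of smallest p. Gene models with only a clone or predicted name, small RNAs, receptor segments and pseudogenes were not named. A few genes that count in the lists are not reported here by name. Further list members were named after their values were seen. Replicates were numbered in accession order and pair nothing. Replicates of a group differed beyond sampling noise, and whether they came from separate cages or extractions is not stated, so p-values measure only the spread between these samples. Alternatives covered the pseudocount (0.1), the filter, the scaling, the table term, each table alone, robust moderation, voom, the libraries in the fit and leaving out each library. The medulla score covariate and the restriction to CT0 of the second table were chosen after seeing the data.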

Additional observations from a re-analysis of the deposited data

Results flagged for a closer look

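In 16 of 334 tests (167 named genes in each of the 2 groups of 4), 1 library stood apart from the other 3 by a gap that, over the group's whole range, passed Dixon's critical value, and chance flags about 1 in 20 groups. At CT12, replicate 1 stood apart with 94.6 FPKM for Dbp, 21.6 for Ciart, 137 for Tnfaip8, 4.895 for Ppara and 1.54 for Nop58. Replicate 2 at CT12 stood apart with 21.5 FPKM for Scnn1b and 5.94 for Slc2a4, and replicate 3 with 10.8 for Rpl13a. At CT0, replicate 1 stood apart with 12.1 FPKM for Cdkn1a, 0.374 for Igfbp1 and 10.1 for Msl3. Replicate 2 at CT0 stood apart with 27.6 FPKM for Bag3, 206 for Atf4, 4.105 for Nop58 and 23.6 for Ppp1r10, and replicate 3 with 6.86 for Pik3r1.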

How the results depend on the processing

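All 1659 genes that passed kept their direction in every alternative that tested them, but the counts did not hold. Changing the filter, table term or moderation, or fitting the 8 or all 48 libraries, leaves each log2 change the same by design. Direction was thus fixed there, and the other alternatives reuse libraries that selected these genes, so the agreement is no independent evidence. Against 446 higher and 1213 lower, there were 294 and 711 without a filter, 135 and 214 without the table term, 13 and 10 from the first table by itself, 42 and 37 from the second, and 69 and 48 with the 8 libraries alone. The added alternatives gave 282 and 712 with the medulla score and 66 and 143 with CT0 of the second table only, of which 191 were among the 1659. The lower count moved by over 1.5 times to 2654 with TPM, 303 with quantile normalization, 227 with median centring, 761 without mitochondrial genes and 2113 with all 48 libraries, where the higher count was 355, 585, 667, 406 and 639. Leaving out 1 library gave 141 to 526 higher and 235 to 1648 lower. Core clock counts of 9 higher and 4 lower moved to 5 higher in the first table and 2 lower in the second, and were 8 to 10 and 4 with 1 library left out. The interaction count of 0 was 1 in the first table, a microRNA gene listed at 0 in all but the D-alanine CT0 libraries there, and its smallest adjusted p was 0.112 to 1 in the others. The mitochondrial difference of 4.45 percentage points was 8.13 in the first table, 0.769 in the second and 1.55 to 7.35 with 1 library left out. With each table alone 2 libraries a group limit the test; elsewhere the cause was not tested. No paired analysis was possible because the replicate numbers were given in accession order and pair no samples.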
